A study of Mus musculus with 14 samples.

Results

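The comparison set shSetdb1.4 against shSetdb1.6, a pair of retroviral short hairpin RNAs (shRNAs) directed at the same gene, at day 5 of ES cell differentiation. It rests on 4 of the 14 libraries analysed, 2 replicates of each hairpin, with the hairpins compared within each replicate number and no control library in the comparison. The genes of interest were those whose allele ratio, or total number of reads, differed between the hairpins in both replicates. The cells were a single line of female ES cells derived from E3.5 embryos of CAST sires and dams that the labels give as 129/C57 and the study's text as 129, with the genotype Setdb1+/+ Xist-deltaA/+. All 14 libraries, including untransduced cells and those with the non-silencing hairpin (Nons), carried the Xist∆A allele on the 129 X chromosome. According to the labels the cells received retrovirus on day 2 of differentiation and puromycin 24 hours later, whereas the methods put transduction at the start of differentiation. The study describes its replicates as independent experiments on this line, and states that some cells had lost an X chromosome (XO), which in a bulk library cannot be told apart from a change in allele expression. Likewise, fewer cells of a type and less RNA per cell cannot be told apart.

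In female mammals one X chromosome is silenced by X chromosome inactivation (XCI), which is started by the long non-coding RNA Xist and held in place by layers of chromatin marks. The Xist∆A allele lacks the repeat needed for silencing, so in these cells the 129 X stayed active (Xa) and the CAST X was the obligate inactive X (Xi). Setdb1 is a histone methyltransferase that places the repressive mark H3K9me3, and it silences many retroviral repeats in ES cells. A hairpin is cut into a short guide strand that directs destruction of its fully matched target, and bases 2 to 8 of the guide (the seed) can also lower other transcripts that match the seed alone. A difference shared by both hairpins is thus commonly read as an effect of the target, and the present comparison asks where the hairpins did not act alike.

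The guide strands, taken from the oligonucleotides listed by the study, are shown because they are the designed difference between the compared libraries, with the seed in capitals.
shSetdb1.4: tTTGTCTGcaaagtcatctgtc
shSetdb1.6: tAGATCTTgagaactgcttttc
Both guides are 22 bases long, the longest run of bases they share is 4, and 9 bases of the guide of shSetdb1.4 were G or C against 8 in that of shSetdb1.6. Each guide matched Setdb1 on the minus strand of chromosome 3 without a mismatch in the GENCODE vM21 transcripts (GRCm38/mm10). The site of shSetdb1.4 lies at chr3:95327805-95327826 in the coding part of exon 16 of transcript Setdb1-201, which has 22 exons. The site of shSetdb1.6 lies in the coding part of exon 5, at chr3:95348003-95348024. All 3 coding transcripts of Setdb1 held both sites. The allele table covers the X chromosome alone, so the level of Setdb1 left by each hairpin was not measured here.

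The deposited values were raw counts of the 129 and of the CAST base at 2239 X-linked single nucleotide polymorphisms (SNPs). Replicate 1 held 77212 reads with shSetdb1.4 and 100999 with shSetdb1.6, while replicate 2 held 101511 and 72083. The order of depth was therefore reversed between the replicates. The other libraries held between 32972 and 87088 reads. Of 355 genes with SNPs, the 247 with at least 10 reads in every one of the 14 libraries were tested.

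The chromosome-wide Xi/Xa ratio did not separate the hairpins, because their order turned over between the replicates. The CAST share of all reads was 45.3% with shSetdb1.4 and 48.2% with shSetdb1.6 in replicate 1, and 53.8% and 50.8% in replicate 2. The median log2 Xi/Xa ratio, (CAST + 1)/(129 + 1) over SNPs with at least 10 reads, was -0.27 with shSetdb1.4 against -0.090 with shSetdb1.6 in replicate 1. In replicate 2 it was 0.19 against 0.027. Both values of shSetdb1.6 thus lay between the values of shSetdb1.4. The difference, always given as shSetdb1.4 minus shSetdb1.6, was -0.18 in replicate 1 and 0.16 in replicate 2, with a mean of -0.011 ± 0.24 (SD, n = 2), and p = 1 by an exact two-sided permutation test within replicates, for which 0.5 is the smallest p possible. With Nons, the same median was -0.47 in replicate 1 and -0.25 in replicate 2, below every hairpin library of its replicate.

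**Figure D1:**
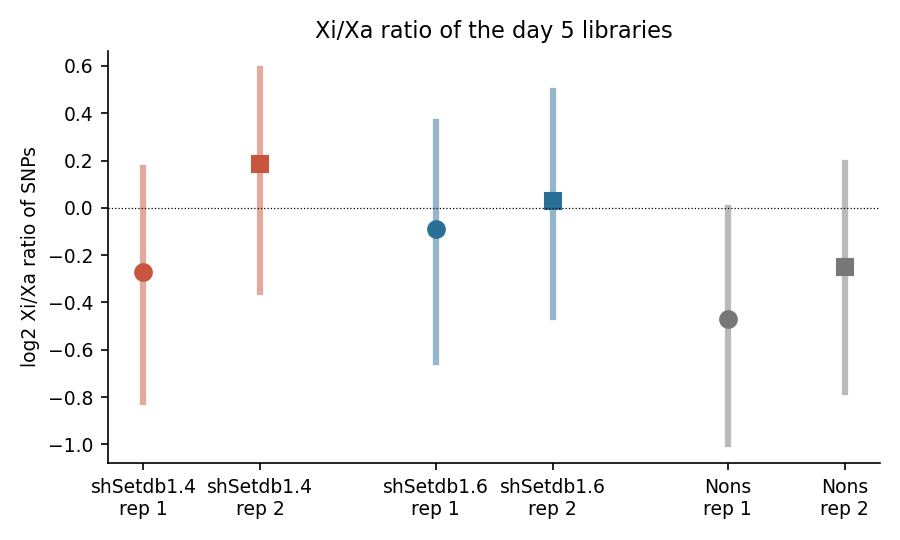
Median (points) and interquartile range (bars) of the log2 Xi/Xa ratio over SNPs with at least 10 reads, in the 6 day 5 libraries (circles, replicate 1; squares, replicate 2). The points of shSetdb1.6 (-0.090 and 0.027) lie between those of shSetdb1.4 (-0.27 and 0.19).

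The turnover was seen along most of the chromosome, though not for every gene or region. In replicate 1, 852 of 1435 SNPs covered in both hairpin libraries had a lower ratio with shSetdb1.4 and 575 a higher one, whereas in replicate 2, 791 of 1364 SNPs had a higher and 561 a lower ratio. Of the 247 genes, 168 were lower with shSetdb1.4 in replicate 1 and 159 were higher in replicate 2. The gene medians were -0.16 and 0.14. In 10 Mb bins with at least 5 genes, the median was negative in 12 of 13 bins in replicate 1 and positive in 11 of 13 in replicate 2, while 3 bins kept their sign. Gene by gene, 134 changed sign between the replicates, 52 were higher with shSetdb1.4 in both and 60 lower in both. Genes that escape X inactivation, whose inactive copy is still read in many tissues, followed the rest of the chromosome: the 6 that were tested (Kdm5c, Kdm6a, Eif2s3x, Ddx3x, Pbdc1 and Utp14a) had a median of -0.12 in replicate 1 and 0.16 in replicate 2, and for each of the 6 the sign differed between the replicates. At day 3, by contrast, the library medians were 0 with both hairpins in both replicates.

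Whether the hairpin difference changed between replicates was fitted gene by gene, with 1 library of each hairpin in each replicate, so that the spread came from the other conditions and the lone libraries were assumed to vary like them. The difference in ratio was larger in replicate 2 than in replicate 1 for 186 of 247 genes, with a median of 0.29 on the log2 scale. No gene passed an adjusted p of 0.05 (edgeR quasi-likelihood test, Benjamini-Hochberg; 0% of the genes tested), and 15 (6.07%) had an unadjusted p under 0.05. DESeq2 was not run on this contrast or on its counterpart for totals.

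Against this background 1 gene differed in its Xi/Xa ratio. Tceal9 (ENSMUSG00000042712.10, chrX:136245079-136247139, plus strand) belongs to the family of TCEAL proteins, small proteins that resemble the transcription elongation factor TFIIS. With shSetdb1.4 it had 430 CAST and 841 129 reads in replicate 1 and 699 and 708 in replicate 2. With shSetdb1.6 it had 305 CAST and 1152 129 reads, and 388 and 787. The ratio was 0.512 and 0.987 with shSetdb1.4 against 0.265 and 0.494 with shSetdb1.6. The groups did not overlap, although the lower value of shSetdb1.4 was close to the higher value of shSetdb1.6, and replicate 2 was higher with both hairpins. The difference was 0.95 in replicate 1 and 1.00 in replicate 2 on the log2 scale. In the edgeR quasi-likelihood fit across all genes with a replicate term, it was 0.98 (SE 0.18), with a Benjamini-Hochberg adjusted p of 9.24e-06. Tceal9 was the only gene to pass, which is 0.405% of the 247 tested, and 13 genes (5.26%) had an unadjusted p under 0.05. Without the replicate term the adjusted p was 0.104. The call was also lost without replicate 2 of shSetdb1.4 (adjusted p = 0.0848) and without replicate 1 of shSetdb1.6 (0.582), and over all alternatives the adjusted p ran from 9.41e-07 to 0.582.

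The 3 SNPs of Tceal9 did not contribute alike. The first, at chrX:136245163, lies in the 5′ UTR of 1 of the 2 annotated transcripts, and the other two, at 136246898 and 136246899, are neighbouring bases in the 3′ UTR of both. Reads that span both neighbours were counted at each, so the reads of this gene are fewer than its counts. At 136246898 the ratio was 0.453 and 0.888 with shSetdb1.4 against 0.222 and 0.437 with shSetdb1.6. The first SNP was much less covered, with 31 129 and 13 CAST reads in replicate 1 of shSetdb1.4, for example, against 418 and 189 at 136246898. There the ratio was 0.438 and 0.344 with shSetdb1.4 against 0.422 and 0.452 with shSetdb1.6, so the hairpins did not separate. With 1 SNP per gene, which kept position 136246899, the edgeR difference was 1.01 (adjusted p = 7.16e-05). The TCEAL genes resemble each other and lie close together, so reads of a near copy may have been counted here.

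In the Nons libraries the Tceal9 ratio was 0.792 and 0.821, so both values of shSetdb1.6 were below Nons whereas those of shSetdb1.4 lay on either side. The total of Tceal9 did not follow its ratio, with normalised read counts (totals scaled to the mean effective library size) of 1206 and 1017 for shSetdb1.4, against 1018 and 1159 for shSetdb1.6. The CAST reads differed by 0.63 (SE 0.25) and the 129 reads by -0.30 (SE 0.21) on the log2 scale, with adjusted p of 0.473 and 0.932 in edgeR. At day 3 the order was different, with a ratio of 0.815 and 0.951 for shSetdb1.4 against 0.821 and 1.45 for shSetdb1.6.

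**Figure D2:**
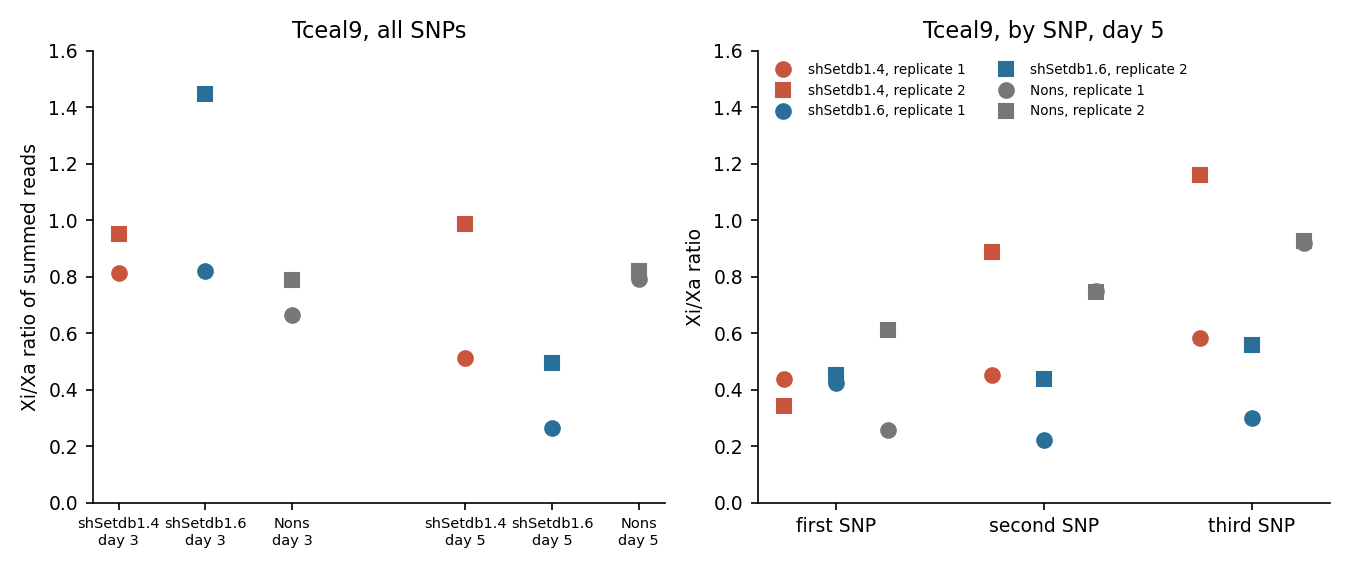
Xi/Xa ratio of Tceal9 from summed reads at day 3 and day 5 (left) and at each of its 3 SNPs at day 5, in order along the chromosome (right); each point is a library (circles, replicate 1; squares, replicate 2). At day 5 shSetdb1.6 (0.265 and 0.494) lies below shSetdb1.4 (0.512 and 0.987), a gap that the first SNP does not show.

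By size alone, genes were counted when the ratio differed by at least 0.5 on the log2 scale in the same direction in both replicates. There were 3 such genes with a higher ratio under shSetdb1.4 (1.21% of those tested) and 6 with a lower ratio (2.43%), while 7 genes (2.83%) differed by as much in opposite directions. With each replicate centred on its median, which takes out the opposite shifts of the chromosome, 5 genes were higher, 9 lower and 7 in opposite directions. Without centring, among the 204 genes with at least 50 reads in each hairpin library, 2 differed in the same direction and 6 in opposite directions. Most of the 9 were thinly read. With fewer than 50 reads in at least 1 of the 4 libraries, Gemin8 and Cenpi were higher, and Elf4, Mtmr1, Taf9b, Pcsk1n and Mcf2 were lower. These 7 genes are named after their values were seen.

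Just outside the threshold lay Irak1, a kinase of Toll-like receptor signalling, with differences of -1.29 and -0.48 and the next smallest adjusted p after Tceal9 (edgeR, 0.332). Cenpi, with 0.55 and 0.58, was the closest gene inside on the higher side, and Mcf2, with -1.02 and -0.53, on the lower side.

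The genes that turned over resembled the chromosome as a whole, in that all 7 were lower with shSetdb1.4 in replicate 1 and higher in replicate 2. Dlg3, a scaffold protein of synapses and cell junctions, had a ratio of 0.768 and 1.47 with shSetdb1.4 against 1.31 and 0.884 with shSetdb1.6. Vma21, an assembly factor of the vacuolar proton pump, differed by -0.83 and 0.74 on the log2 scale. For Gpc4, a cell surface proteoglycan, the differences were -0.71 and 0.70, and for Phka2, a regulatory subunit of phosphorylase kinase, -1.18 and 0.56. Across the 247 genes the differences of replicate 1 and replicate 2 had a Pearson correlation of 0.14 and a Spearman correlation of 0.098. Genes are not independent replicates and share their libraries, so no test was made of these values.

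**Figure D3:**
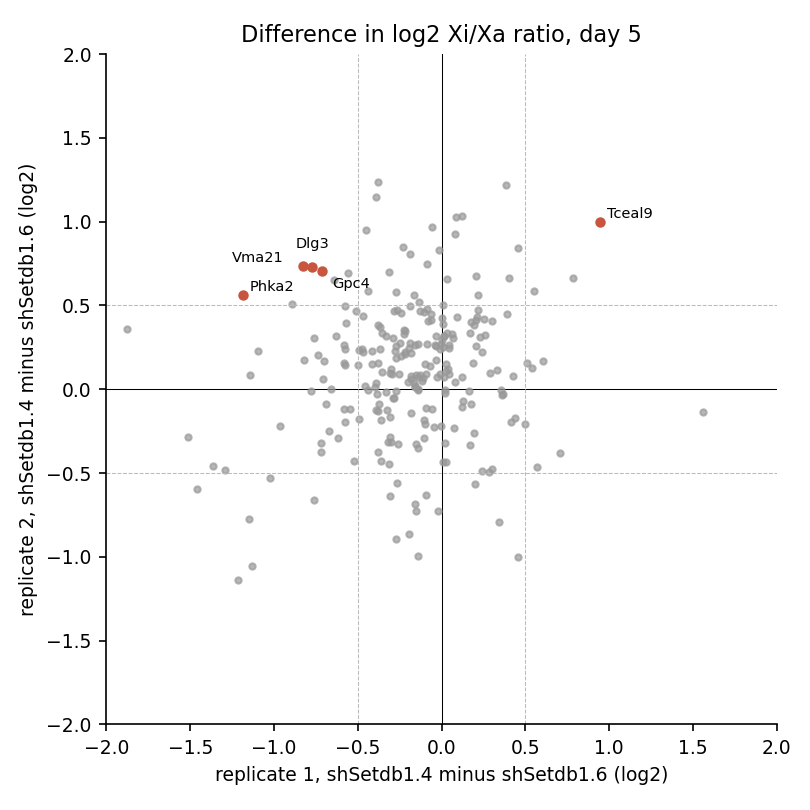
Difference in log2 Xi/Xa ratio (shSetdb1.4 minus shSetdb1.6) of 247 genes in replicate 1 (horizontal) and replicate 2 (vertical), with dashed lines at 0.5 and -0.5. Tceal9 (0.95 and 1.00) stands apart at the upper right, and the cloud is shifted to the upper left, with medians of -0.16 and 0.14.

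Total reads per gene, the sum of both alleles scaled by TMM normalisation, also gave little that recurred. No gene passed the threshold (0% of 247) in the edgeR quasi-likelihood test with the same adjustment (Benjamini-Hochberg), where the smallest adjusted p was 0.248, and 20 genes (8.1%) had an unadjusted p under 0.05. DESeq2 made 0 calls as well. At least 0.5 on the log2 scale in both replicates was reached by 4 genes that were higher with shSetdb1.4 (1.62%) and 5 that were lower (2.02%), against 8 genes (3.24%) in opposite directions. Across 247 genes the correlation between the differences of the 2 replicates was 0.011 (Pearson). At day 3 the same correlation, between libraries of the same hairpins, was 0.73, with 44 genes past 0.5 in the same direction and 2 in opposite directions.

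Within a replicate, the day 5 total differences were nevertheless coherent along a gene. The SNPs of each gene were split by position into a first and a last part at least 100 bp apart, with at least 30 reads in each part. The 2 parts of a gene gave total differences with a Pearson correlation of 0.61 over 136 genes in replicate 1 and of 0.77 over 120 genes in replicate 2, although the parts share their libraries. For the differences in Xi/Xa ratio, the parts were uncorrelated (0.031 and -0.12). Totals thus differed between the hairpin libraries in a way that both parts of a gene showed but that the other replicate did not share, while at this depth the ratio differences of the parts were not related.

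The 4 genes with a higher total under shSetdb1.4 were Tmem47, Gpc4, Tceal8 and Ccdc120. Tmem47 (chrX:81070698-81097872), a transmembrane protein of cell junctions, had a normalised read count of 905 and 873 with shSetdb1.4 against 554 and 531 with shSetdb1.6. Nons gave 614 and 617, so shSetdb1.4 was above and shSetdb1.6 below both controls. The difference was 0.71 in each replicate, and in edgeR 0.71 (SE 0.17, adjusted p = 0.248). It was seen on both alleles, with fitted differences of 0.85 (SE 0.22) in CAST reads and 0.60 (SE 0.18) in 129 reads. At day 3 Tmem47 had 104 and 112 normalised reads with shSetdb1.4 against 131 and 125 with shSetdb1.6, so its level was several times lower than at day 5 and the order of the hairpins was the other way round.

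Tceal8, a neighbour and relative of Tceal9, had 273 and 316 normalised reads with shSetdb1.4 against 187 and 194 with shSetdb1.6. It was also higher with shSetdb1.4 at day 3, with 277 and 324 against 140 and 145, and there it passed the test (1.08, adjusted p = 0.0123 in edgeR). Its day 5 difference was 0.62 (SE 0.19, adjusted p = 0.272). Gpc4 had 79.7 and 93.2 against 47.5 and 62.1 normalised reads. Ccdc120, a coiled-coil protein, had 120.5 and 96.1 against 60.1 and 67.0. Neither gene overlapped between the hairpins.

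The 5 genes with a lower total under shSetdb1.4 were Dusp9, Nxf3, Taf7l, Usp26 and, with fewer than 50 reads in a library, Mcf2. Dusp9 (chrX:73639419-73643514), a phosphatase that dampens ERK signalling, had 335 and 267 normalised reads with shSetdb1.4 against 525 and 393 with shSetdb1.6. It is listed below for undifferentiated ES cells, but it did not fall with differentiation here. In replicate 1 it had 125 CAST and 147 129 raw reads at day 0, among 74988 gene reads. With Nons at day 5 it had 208 and 291, among 83246. Nons, with 398 and 366, overlapped the shSetdb1.6 range, and shSetdb1.4 was below it in both replicates. The edgeR difference of -0.61 (SE 0.18) had an adjusted p of 0.272, and each allele showed it, with -0.63 in CAST reads and -0.59 in 129 reads. The other 3 are known from the testis. Nxf3, a relative of the mRNA export factor Nxf1, differed by -0.63 and -1.46 in the 2 replicates. Taf7l, a germ cell TFIID subunit, differed by -0.51 and -0.76, and Usp26, a testis deubiquitinase, by -0.5005 and -1.002. Their adjusted p in edgeR were 0.428, 0.49 and 0.501.

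Nearest outside the threshold of 0.5 lay Txlng, which was lower with shSetdb1.4 (-1.17 and -0.499), and Ubl4a, which was higher (0.59 and 0.498). Usp26 and Ccdc120 (0.51 in replicate 2) were the nearest inside. Mcf2 was the 1 gene in both lists, lower in ratio and in total with shSetdb1.4, at differences in total of -1.19 and -0.85.

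Of the 8 genes whose totals turned over, Pim2 had the widest swing. This serine/threonine kinase promotes cell survival and is a known site of retroviral insertion in lymphomas. It had 631 and 3844 normalised reads with shSetdb1.4 against 1280 and 1337 with shSetdb1.6. Replicate 2 of shSetdb1.4 thus stood far above the rest, replicate 1 was the lowest of the hairpin libraries, and shSetdb1.6 was nearly constant. Nons varied too, with 734 and 2522. Both alleles took part, since the difference in replicate 2 was 1.501 in CAST reads and 1.55 in 129 reads. In the opposite order, higher with shSetdb1.4 in replicate 1 and lower in replicate 2, were Rp2, a GTPase-activating protein of cilia (0.54 and -0.70), Fam3a, a secreted protein (0.52 and -0.54), and Gpc3, a cell surface proteoglycan (0.51 and -0.66).

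**Figure D4:**
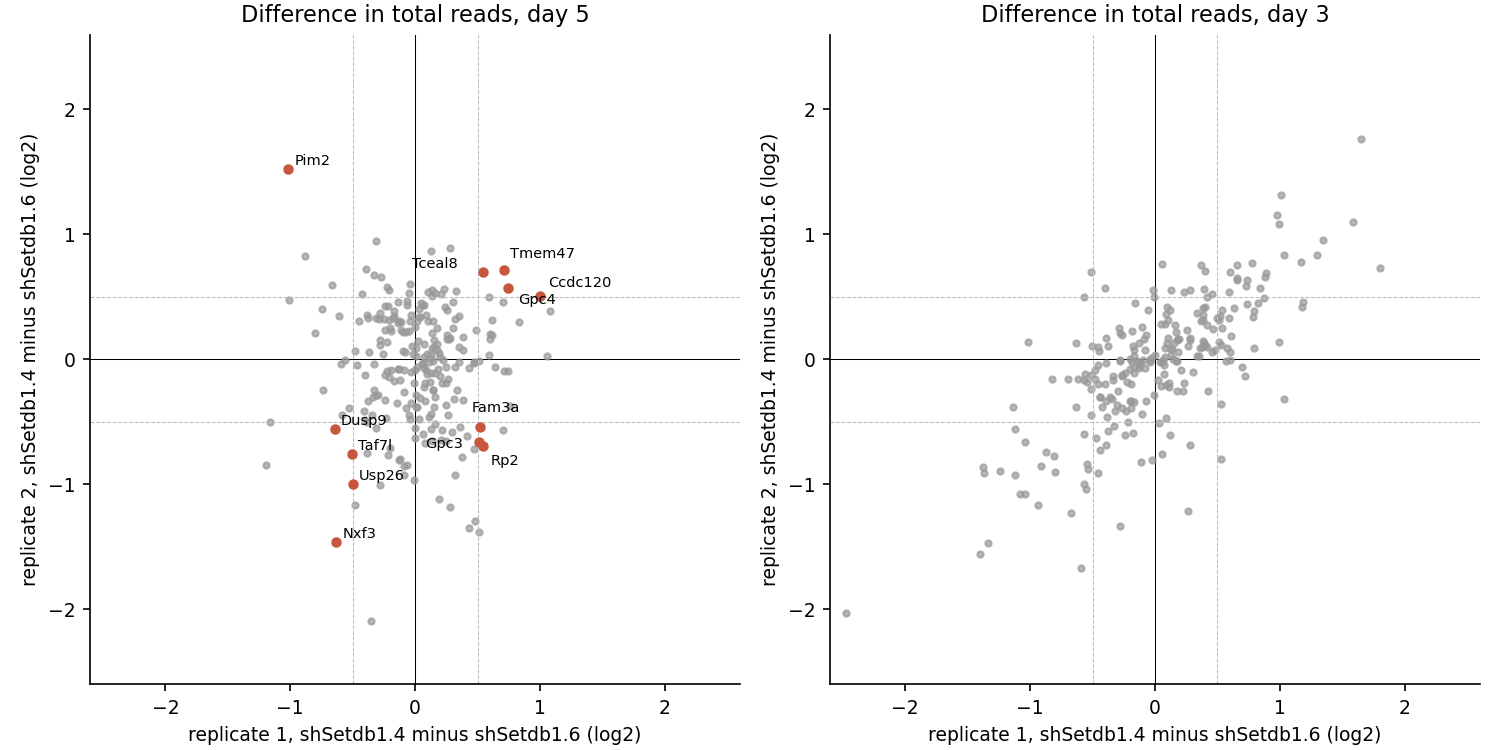
Difference in normalised total reads (shSetdb1.4 minus shSetdb1.6, log2) of 247 genes in replicate 1 (horizontal) and replicate 2 (vertical), at day 5 (left) and at day 3 (right), with dashed lines at 0.5 and -0.5. The day 3 differences lie along the diagonal (Pearson correlation 0.73), those of day 5 do not (0.011), and Pim2 lies at the upper left.

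Gene groups were described by their counts and medians beside those of all 247 genes, of which 65 had a higher total with shSetdb1.4 in both replicates, 57 a lower one and 125 a sign that differed, with a median of 0.014. X-linked genes listed for differentiated derivatives were mostly higher with shSetdb1.4. Of the 11 tested, 9 were higher in both replicates, 0 were lower in both and 2 (Gpc3 and Tceal9) turned over. Their median was 0.39. As a sum they rose from 3171 and 3220 normalised reads at day 0 to 5456 and 7311 with Nons at day 5. Not every member rose. Gpc4 had 66 CAST and 81 129 raw reads at day 0 in replicate 1, and 122 and 129 in replicate 2. With Nons at day 5 it had 23 and 33, and then 15 and 17 in a shallower library. In replicate 1 alone Fhl1 and Bex4 also fell. None of the 11 passed the adjusted threshold for totals. Flna, the actin crosslinker filamin A, had 3594 and 4100 normalised reads with shSetdb1.4 against 2206 and 2984 with shSetdb1.6 (0.58, SE 0.16, adjusted p = 0.272 in edgeR). Bex1, a neuronal adaptor protein, had 642 and 684 against 510 and 468. The summed normalised reads of the group were 6899 and 7269 with shSetdb1.4, 4795 and 5866 with shSetdb1.6, and 5456 and 7311 with Nons. The hairpins did not overlap in this sum, while Nons ran from between the shSetdb1.6 libraries to above both of shSetdb1.4. Flna was the largest part of each sum and of the gap between the hairpins.

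Genes listed for undifferentiated ES cells did not move the other way as a group. Their sum rose with differentiation, from 968 and 1138 normalised reads at day 0 to 2260 and 1951 with Nons at day 5. In these libraries the list is thus no measure of undifferentiated cells. Of 5 tested, only Dusp9 was lower in both replicates, and 3 (Klhl13, Tfe3 and Eras) turned over. Their sum was 2238 and 2286 with shSetdb1.4 against 2505 and 1942 with shSetdb1.6. No gene listed as a trophoblast marker was tested, since 3 of the 7 had SNPs and none had 10 reads in every library. The defining autosomal markers of ES cells and their derivatives are outside the allele table, so the labelled cell type was not checked further. Whether the share of differentiated cells has a part in the total differences was not tested.

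Germline and testis-expressed genes leaned the other way, with 5 of 8 lower in both replicates with shSetdb1.4 (Taf7l, Xlr3a, Xlr3c, Usp26 and Gm364), 1 higher in both (Maged2) and a median of -0.34. The summed reads were 2192 and 1386 against 2172 and 1882, so the groups overlapped, and the difference was in replicate 2. Xlr3a and Xlr3c are near copies of each other and could share reads. Mitochondrial and energy metabolism genes (18 tested) had a median of -0.037, chromatin and transcription regulators (28) 0.013, genes of ribosome, translation and RNA processing (14) 0.078, innate sensing and stress genes (7) 0.034 and X inactivation and pluripotency regulators (8) -0.11. The 6 escape genes had a median of 0.16, with Ddx3x, an RNA helicase, at 0.38 (SE 0.17, adjusted p = 0.548 in edgeR). No list held a gene that passed for its total, and Tceal9 was the only listed gene that passed for its ratio.

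**Figure D5:**
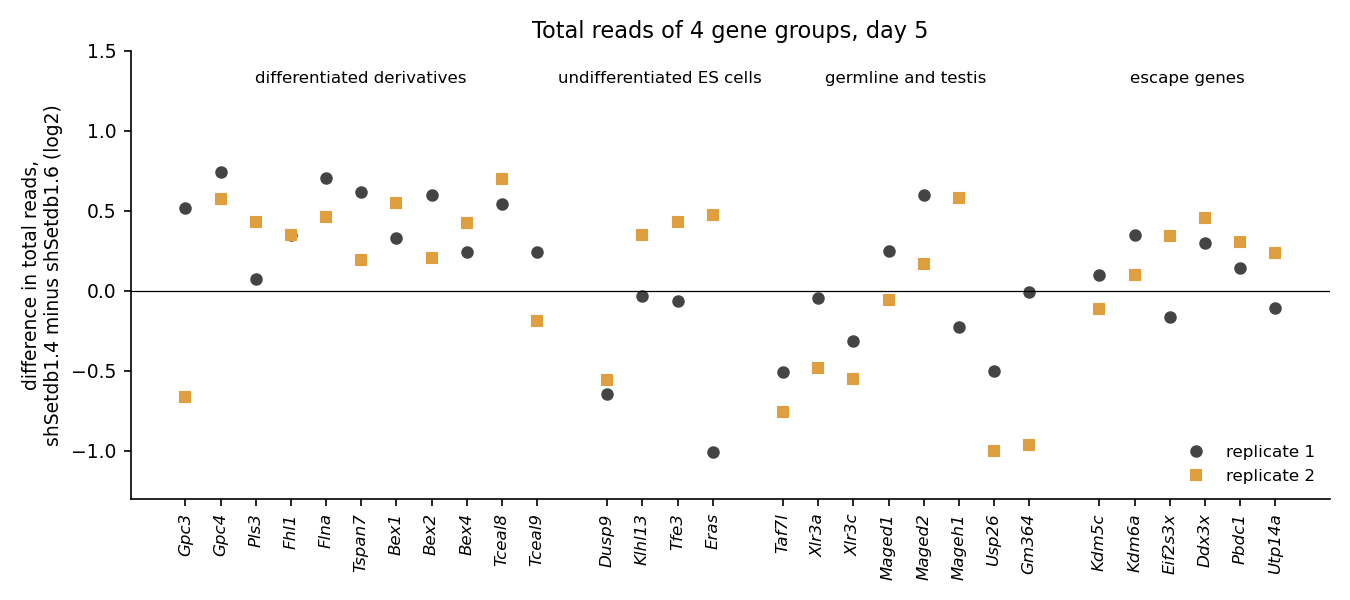
Difference in normalised total reads (shSetdb1.4 minus shSetdb1.6, log2) in replicate 1 (circles) and replicate 2 (squares) for tested members of 4 gene groups at day 5. In the list for differentiated derivatives 9 of 11 genes have both points above 0. In the germline and testis group 5 of 8 have both below.

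Fitted by allele, the comparison gave 0 genes with different CAST reads and 0 with different 129 reads (0% each) in the edgeR quasi-likelihood test, adjusted by Benjamini-Hochberg. Before adjustment 22 genes had p under 0.05 for CAST reads and 14 for 129 reads, and DESeq2 also made 0 calls for either. The leading genes for CAST reads were Mcf2 (-1.47, SE 0.36) and Tmem47 (0.85, SE 0.22), both at an adjusted p of 0.124, and for 129 reads they were Scml2 (-1.20, SE 0.32) and Flna (0.63, SE 0.18), both at 0.282. The fitted differences of Flna and Tmem47 had the same sign on the Xi and the Xa. Scml2, a Polycomb protein of germ cells, and Mcf2 are named after their values were seen.

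The seeds of the hairpins were searched in all annotated transcripts of the tested genes, on the transcript strand. The complement of bases 2 to 8 reads CAGACAA for shSetdb1.4 and AAGATCT for shSetdb1.6. Of 247 genes, 53 held the former alone, 44 the latter alone, 45 both and 105 neither. The median fitted difference in total was 0.014 for genes with the shSetdb1.4 match alone and 0.031 for genes with the shSetdb1.6 match alone. It was 0.014 over all genes, and the medians of the 2 classes differed by -0.017. Taken instead from the differences of each replicate, the gap was -0.10 in replicate 1 and -0.0063 in replicate 2 (SD 0.068, n = 2). This SD is the spread of the replicate values and not that of the fitted gap. With bases 2 to 7 of the guide, the gap was -0.11 from the fitted differences, and -0.099 and -0.30 from those of each replicate (SD 0.14, n = 2). The shorter match takes in the longer one and rests on the same libraries, so these are not separate results. For bases 2 to 7 the class medians were -0.098 with the shSetdb1.4 match alone, 0.016 with the shSetdb1.6 match alone, 0.021 with both and 0.16 with neither. For bases 2 to 8, Tmem47, Dusp9, Tceal8 and Tceal9 held neither match. By the same letters, of the 9 genes whose total differed in both replicates, 1 held the match of shSetdb1.4 (Taf7l) and 1 that of shSetdb1.6 (Gpc4). The letters are those of the whole transcript and do not show that a guide acted there.

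The hairpins were last compared with their own difference at day 3, in libraries that the day 5 comparison does not share. At day 3, 12 genes (4.86%) differed in total and 2 (0.81%) in ratio in the edgeR test. Of the 12, 2 (Tceal8 and Taf9b) had the same sign in both replicates at day 5, 3 (Firre, Pls3 and Map3k15) the opposite sign in both, and 7 turned over. None passed at day 5. The change of the hairpin difference from day 3 to day 5 passed the threshold for the ratio of 6 genes (2.43%) and for the total of 1 gene (0.405%), Firre, but for no gene without the replicate term. Firre, a long non-coding RNA transcribed from the X, had 1349 and 669 normalised reads with shSetdb1.4 against 758 and 543 with shSetdb1.6 at day 5, and 196 and 85.0 against 314 and 201 at day 3. It was thus the lower with shSetdb1.4 at day 3 and the higher at day 5 in each replicate. For the change of the total difference between replicates, fitted with the same lone libraries, no gene passed (0%), 15 genes (6.07%) had an unadjusted p under 0.05, and Pim2 led with 2.54 (SE 0.62, adjusted p = 0.171 in edgeR).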

How the data were processed

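RNA from differentiating ES cells was made into TruSeq v2 libraries and sequenced as 100 bp single-end reads. Subread mapping to mm10 and samtools pileup at strain SNPs of the X chromosome were done by the authors, and the deposited values are the resulting raw counts of 129 and CAST bases. CASAVA 1.8.2 and SAMtools are named in the submitters' processing notes. A read that covers several SNPs was counted at each (44% of gene SNPs lie within 100 bp of another), and no source says that strand was used. Another 4 per-sample columns match no sample used here. Xist was not analysed, and a few other genes are not reported here by name, though they were kept in the fits and counts.

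SNPs were assigned to exons of GENCODE vM21, and the 2173 SNPs in exons of exactly 1 gene were summed per gene. Both kinds of fit used edgeR 4.0.16 in R 4.3.3 over all 14 libraries, with the quasi-likelihood test, Benjamini-Hochberg adjustment over 247 genes and a threshold of 0.05. The ratio fit had library terms plus CAST effects of condition and of replicate. The total fit used TMM normalisation and a replicate term. DESeq2 1.42.0 was an alternative, and the others changed the filter, SNPs, pseudocount, normalisation, size threshold and libraries. Fits were tested on simulated data. Medians and exact tests used scipy 1.17.1, numpy 2.4.6 and pandas 2.3.3 in Python 3.11.15. Differences per replicate have a pseudocount of 1.

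Groups came from the sample labels. The pairing by replicate number comes from the study, which describes 2 independent experiments and compares hairpins within each. Same-numbered libraries deviated together only weakly, with a mean correlation of 0.051 for ratios (from -0.14 to 0.27) and 0.21 for totals (from -0.056 to 0.66). The p-values measure the spread between these libraries of 1 line.

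Named genes are those past a threshold, up to 8 in each direction with 50 reads or more in all 4 libraries and a difference of 0.5 or more in both replicates, up to 4 that did so in opposite directions in each order, and examples of the lists. The comparison, its members and the gene lists were chosen with earlier results of these data known. Counts carry counting error only, without molecular identifiers.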

Additional observations from a re-analysis of the deposited data

Results flagged for a closer look

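For 6 genes the hairpin difference in Xi/Xa ratio was not the same at day 5 as at day 3 by edgeR's test of the difference itself (quasi-likelihood with Benjamini-Hochberg adjustment). On the log2 scale, day 5 minus day 3, the change was, among them, 1.304 for Tceal9 (adjusted p = 0.000266), 3.08 for Txlng (0.0139), 2.42 for Arxes1 (0.0188), -1.90 for Maoa (0.043) and 2.93 for Zc4h2 (0.0462). Zc4h2 is named after its values were seen. None of the 6 passed without the replicate term, and none without replicate 1 of shSetdb1.6. Without replicate 2 of either hairpin Tceal9 still passed whereas Txlng, Arxes1, Maoa and Zc4h2 did not, and without replicate 1 of shSetdb1.4 Maoa did not. Tceal9 alone among them also passed at day 5 itself.

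Day 3 reads were few for several of these genes. Txlng had 4 CAST and 32 129 reads and then 8 and 49 with shSetdb1.4 at day 3, against 12 and 8 and then 16 and 25 with shSetdb1.6, a ratio of 0.152 and 0.18 against 1.44 and 0.654. At day 5 its ratios were 0.769 and 0.541 with shSetdb1.4 against 0.581 and 0.341 with shSetdb1.6. For Arxes1 the day 3 ratios were 0.736 and 0.885 against 4.2 and 1.67.

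For totals, Firre changed by 1.51 (SE 0.28, adjusted p = 0.0171 in the same test), since it was lower with shSetdb1.4 at day 3 and higher at day 5. The call was lost without the replicate term (1.51, adjusted p = 0.629) and without replicate 1 of shSetdb1.6 (1.32, adjusted p = 0.135), while the change itself stayed between 1.32 and 1.78 over the settings run. Over its settings the change of Tceal9 ran from 1.03 to 1.58, that of Txlng from 2.87 to 3.30, that of Arxes1 from 1.56 to 2.91, that of Maoa from -2.28 to -1.46 and that of Zc4h2 from 2.15 to 3.39.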

How the results depend on the processing

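Without the replicate block, the pairing of libraries by number, the 1 ratio call at day 5 became 0, the 6 ratio calls and the 1 total call on the change from day 3 to day 5 became 0 each, and totals at day 5 stayed at 0. The same ratio call and by-day calls were also lost without replicate 1 of shSetdb1.6, and the calls at day 3 were not refitted without the block. Leaving out each hairpin library in turn gave from 0 to 2 ratio calls (the second was Klhl13, without replicate 1 of shSetdb1.4), from 0 to 1 total call and from 0 to 1 call for CAST reads (Scml2 in both, without replicate 1 of shSetdb1.4). The same step gave from 0 to 7 ratio calls and from 0 to 1 total call by day. With day 5 libraries only, 1 gene passed for 129 reads (Scml2), and the change between replicates could not be fitted for lack of residual degrees of freedom. At 30 reads or more, 3 of the 6 ratio calls by day were left, among them Tceal9 and Maoa. The 9 genes that differed in ratio in both replicates became 25 at 0.3, 2 at 1, 2 at 30 reads or more and 14 after centring each replicate on its median. The 9 for totals became 30 at 0.3, 0 at 1 and 5 at 30 reads or more. The seed classes differed by -0.11 with bases 2 to 7. The mean difference of library medians ran from -0.030 to 0.0025 over the alternatives that keep both replicates, and each replicate alone gave -0.18 and 0.16. Except where the construction shows it, the cause was not tested. The median covered SNP had 25 to 29 reads in the day 5 hairpin libraries, which limits ratios of single SNPs.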
